A study of Mus musculus with 6 samples.

Results

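Transcript abundance was examined for 9 genes of the pathway that starts coagulation at the cell surface, activates plasminogen there and senses the resulting proteases. They are tissue factor (F3), its inhibitor (Tfpi), the endothelial anticoagulant receptors (Thbd and Procr), the plasminogen activators and their receptor (Plau, Plat and Plaur) and receptors cleaved by thrombin and trypsin-like proteases (F2r and F2rl1). Members were found by matching the mouse transcript identifiers of the deposited table to GENCODE M21 symbols, and 8 of the 9 were present among 11236 gene symbols. Thbd, which encodes thrombomodulin, matched no row and was not analysed here; the table holds mouse transcripts with a mean of at least 0.5 in either group. All 8 listed genes had a mean of 1 or more and were tested. The genes were proposed with the comparison between the groups already known, and F3 was known to be past the threshold, so their differences are given as a description and not as support for the choice.

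All libraries came from BUMPT cells, a conditionally immortalised line from mouse proximal tubule, and the labels give no added injury or other treatment. A group of 3 libraries is labelled NC and a group of 3 is labelled tRF-Val, after a fragment of a valine transfer RNA called tRF-Val-TAC-004. The labels do not spell out NC or say whether the fragment was raised or blocked, and they do not state separate cultures, so p-values cover variation among these libraries alone, and it may be technical. The stated purpose was to find a target gene of the fragment in apoptosis. NC 3 stood apart from the other libraries. Its Pearson r across genes was 0.903 to NC 1 and 0.915 to NC 2, against 0.974 between those libraries, and mitochondrially encoded transcripts made up 17.5% of its values and 3.16% to 6.58% of those elsewhere. Results that rest on it are therefore also given without it. Values of the libraries of a group are listed in replicate order.

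Tissue factor is a membrane receptor that binds coagulation factor VII and starts clotting; it lies outside the bloodstream on many epithelial cells, including those of the kidney. Thrombin formed in this way cleaves protease-activated receptors, whose new amino terminus then acts as their own ligand. Urokinase (Plau) is the main plasminogen activator of tubular cells and of urine, and is held at the cell surface by the receptor encoded by Plaur. Tissue-type activator (Plat) acts mainly on fibrin.

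RefSeq promoter windows on GRCm38.p6 matched 5 of the 9 members (F3, Plaur, Tfpi, Procr and F2r). Those with a match to the binding motif of AP-1, a factor of the Jun and Fos families known to act on the human tissue factor and urokinase receptor genes, are shown 5′ to 3′ on the gene's strand, ending before the earlier of the RefSeq and M21 starts. Capitals mark matches to TGANTCA on either strand. The F3 window is chr3:121723287-121723536 (plus strand), the Plaur window chr7:24462233-24462482 (plus), the Procr window chr2:155750967-155751116 (plus) and the F2r window chr13:95618488-95618716 (minus).
F3: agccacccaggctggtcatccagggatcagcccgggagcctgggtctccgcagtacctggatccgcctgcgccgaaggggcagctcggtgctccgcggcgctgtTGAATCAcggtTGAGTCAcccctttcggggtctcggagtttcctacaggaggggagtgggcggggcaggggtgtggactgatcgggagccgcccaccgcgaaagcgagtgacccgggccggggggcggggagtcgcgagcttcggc
Plaur: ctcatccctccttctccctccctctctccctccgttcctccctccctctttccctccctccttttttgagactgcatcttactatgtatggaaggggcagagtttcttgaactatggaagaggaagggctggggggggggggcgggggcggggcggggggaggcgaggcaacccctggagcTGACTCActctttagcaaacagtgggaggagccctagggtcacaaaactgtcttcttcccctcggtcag
Procr: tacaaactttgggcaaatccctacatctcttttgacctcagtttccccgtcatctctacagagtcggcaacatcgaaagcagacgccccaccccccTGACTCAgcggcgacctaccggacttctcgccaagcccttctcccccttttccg
F2r: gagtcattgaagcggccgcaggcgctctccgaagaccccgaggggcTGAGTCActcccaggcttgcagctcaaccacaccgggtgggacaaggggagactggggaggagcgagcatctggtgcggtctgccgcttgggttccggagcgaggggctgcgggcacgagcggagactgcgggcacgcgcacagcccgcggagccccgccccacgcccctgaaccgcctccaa

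In the 250 bases before its RefSeq start, F3 held 2 matches to TGANTCA, which begin 146 and 135 bases before the start. Plaur, Procr and F2r held 1 match each, and neither of the Tfpi windows held any. Of 32851 windows of 27025 symbols, 6.75% held at least 1 match and 0.338% held at least 2. F3 also held GGAGTTTCC, a match to the kappa B form GGANTTNCC, beginning 112 bases before the start, and Procr held 1 such match; 3.15% of windows held at least 1. The Sp1 motif GGGCGG, on either strand and not overlapping those matches, occurred 3 times in the F3 window and 3 times in the Plaur window, as in 8.47% of windows with at least 3. These motifs were chosen from what is known of the F3 promoter; a match is a description of the letters and not of binding.

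F3 fell in tRF-Val. Its value was 17.8, 16.9, 17.5 across NC against 7.29, 6.82, 7.30 across tRF-Val. The groups did not overlap, and within each group the libraries lay close together. The NC mean was 17.4 ± 0.464 (SD, n = 3) and the tRF-Val mean 7.14 ± 0.276 (SD, n = 3), a ratio of 0.410. The values are an abundance scaled by the authors to the library, and depth is unknown. As a difference of log2(value + 1), tRF-Val less NC, which makes changes of low genes look smaller, the fold change was -1.18 (SE 0.138). The limma p was 9.93e-05, or 0.0469 after adjustment over 10405 genes. F3 was 1 of 21 genes lower at an adjusted p under 0.05, which is 0.202% of the genes tested, and no member was among the 6 genes that were higher, which is 0.0577%. In bulk RNA, fewer cells of a type and less RNA per cell cannot be told apart.

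The size of the F3 difference was steadier than its call. Across 17 alternative settings the log2 fold change lay between -1.41 and -1.08, always lower in tRF-Val, and the adjusted p (limma) was under 0.05 in 7 of them. Leaving out NC 1, NC 2, tRF-Val 1, tRF-Val 2 or tRF-Val 3 gave adjusted p of 0.145, 0.171, 0.062, 0.167 and 0.197. Without NC 3 the fold change was -1.17 with an adjusted p of 0.0264.

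**Figure D1:**
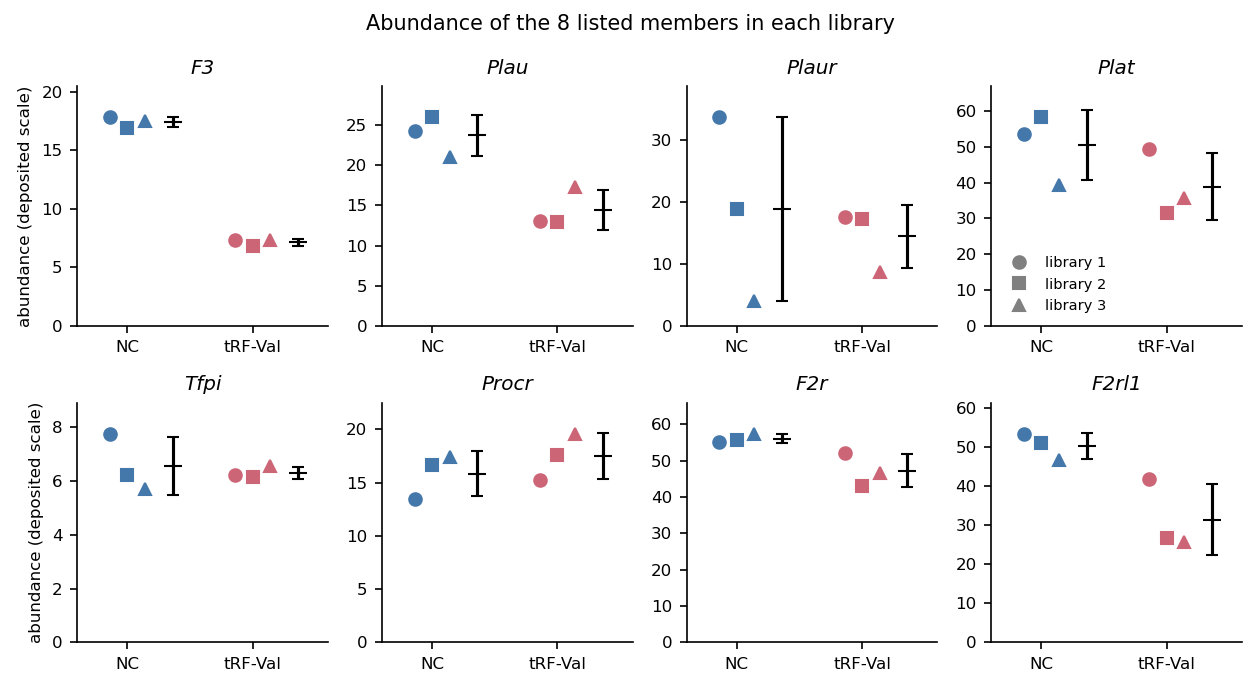
Abundance of the 8 listed members on the deposited scale (vertical axes, each from 0) in the NC (blue) and tRF-Val (red) libraries; symbols are libraries and the black bar is the mean with SD (n = 3). The F3 libraries form 2 tight groups at 16.9 to 17.8 and 6.82 to 7.30, whereas Plaur spreads from 4.04 to 33.7 within NC.

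The F3 gene (ENSMUSG00000028128.13) occupies bases 121723537 to 121735048 of chromosome 3 (GRCm38, plus strand). The table listed 2 of its transcripts, both protein-coding. The longer one, of 1872 bases and 6 exons, spans the whole gene and was at 16.5, 14.8, 17.5 across NC against 7.29, 6.82, 7.30 across tRF-Val. The shorter one, of 1130 bases and 3 exons, starts at 121729547 and shares the gene's 3′ end. It was at 1.27 in NC 1 and 2.11 in NC 2 and was listed at 0 in NC 3 and in each tRF-Val library. The short transcript therefore held 7.11% and 12.5% of the F3 value in NC 1 and NC 2 and none of it elsewhere. Taken alone, the longer transcript had a log2 fold change of -1.08 (SE 0.161) and an adjusted p of 0.0502 in limma over 16320 transcripts, of which 1.14% passed the threshold.

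Tfpi, whose product blocks the complex of tissue factor with factor VII, had nearly equal means in the groups. Its gene value was 7.76, 6.21, 5.70 across NC against 6.22, 6.14, 6.55 across tRF-Val. The groups overlapped, with a log2 fold change of -0.04 (SE 0.171, adjusted p 0.886 by limma). The ratio of the F3 value to the Tfpi value, which no scaling of a library changes, was 2.29, 2.72, 3.07 across NC against 1.17, 1.11, 1.12 across tRF-Val. The NC mean was 2.69 ± 0.388 (SD, n = 3) and the tRF-Val mean 1.13 ± 0.0345 (SD, n = 3), with no overlap.

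Tfpi is spliced to forms with different 3′ ends, of which the known ones differ in whether the inhibitor is secreted or anchored to the membrane. The table listed 5 protein-coding transcripts on the minus strand of chromosome 2. The 2 that end at 84432855 or 84432860 added up to 4.91, 5.18, 3.91 across NC against 5.00, 4.84, 5.36 across tRF-Val. The 3 that end at 84440140 added up to 2.85, 1.03, 1.80 across NC against 1.22, 1.30, 1.19 across tRF-Val. Both sums overlapped between groups. Shares of individual transcripts were unsteady among libraries of a group: the 9-exon form of 1492 bases held 28.9%, 59.9% and 0% of the gene value in NC 1, 2 and 3 and 74.4%, 35.5% and 57.9% in the tRF-Val libraries.

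**Figure D2:**
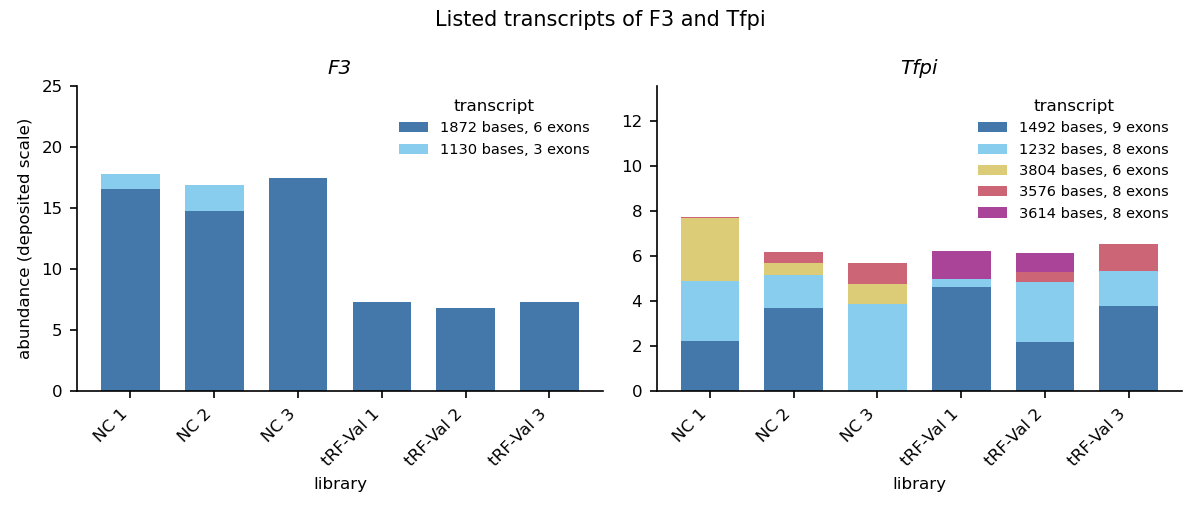
Stacked bars of the listed transcripts of F3 (left) and Tfpi (right) in each library, on the deposited abundance scale (vertical axis, from 0), coloured by transcript. The shorter F3 transcript appears in NC 1 and NC 2 alone, and the Tfpi gene value stays between 5.70 and 7.76 while the shares of its transcripts differ between libraries.

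Procr encodes the endothelial protein C receptor, which presents protein C for activation. Its 1 listed transcript was at 13.4, 16.6, 17.4 across NC against 15.3, 17.6, 19.6 across tRF-Val. The groups overlapped, and the log2 fold change was 0.14 (SE 0.173, adjusted p 0.615 by limma), the 1 positive value among the members. The ratio of F3 to Procr was 1.33, 1.02, 1.01 across NC against 0.478, 0.387, 0.373 across tRF-Val.

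Plau had lower values in tRF-Val without passing the threshold. It was at 24.2, 26.0, 20.97 across NC against 13.1, 12.9, 17.2 across tRF-Val. The groups did not overlap. The means were 23.7 ± 2.54 and 14.4 ± 2.46 (SD, n = 3 each), a log2 fold change of -0.69 (SE 0.176) with an adjusted p of 0.0947 in limma over all genes. The gene (ENSMUSG00000021822.3) lies on chromosome 14 at 20836660 to 20843385 with 1 listed transcript of 11 exons.

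Plat was listed at 53.6, 58.2, 39.4 across NC against 49.5, 31.5, 35.7 across tRF-Val. These groups overlapped (log2 fold change -0.37, SE 0.234, adjusted p 0.324 by limma). Plat was above Plau in every library: the ratio of Plau to Plat was 0.452, 0.446, 0.532 across NC against 0.265, 0.409, 0.484 across tRF-Val, which overlapped.

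Plaur varied within NC by more than the difference between the group means. It was at 33.7, 18.9, 4.04 across NC against 17.6, 17.2, 8.64 across tRF-Val. The log2 fold change was -0.03 with an SE of 0.718 (adjusted p 0.983 by limma), so neither a rise nor a fall of moderate size could be detected. Without NC 3 it was -0.82 (SE 0.401, adjusted p 0.206), and without NC 1 it was 0.57. The part of what sets NC 3 apart in its low Plaur value was not tested.

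The thrombin receptor F2r and the related receptor F2rl1, which trypsin-like proteases and the tissue factor complex cleave, lie near each other on the minus strand of chromosome 13, at 95601803 to 95618487 and 95511732 to 95525227. F2r was at 55.1, 55.7, 57.4 across NC against 52.1, 43.0, 46.6 across tRF-Val. Its groups did not overlap, but the difference was small, with a log2 fold change of -0.25 (SE 0.134, adjusted p 0.266 by limma). F2rl1 was at 53.3, 50.9, 46.7 across NC against 41.8, 26.7, 25.8 across tRF-Val. All tRF-Val libraries lay below all NC libraries, and tRF-Val 1 lay well above the other tRF-Val libraries. The log2 fold change was -0.69 (SE 0.214, adjusted p 0.117 by limma). The ratio of F2r to F2rl1 was 1.03, 1.10, 1.23 across NC against 1.25, 1.61, 1.81 across tRF-Val, again without overlap.

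Over the 8 members, 7 fold changes were negative and 1 was positive, with a median of -0.31 against 0.01 over all genes tested. The groups did not overlap in 4 members, F3, Plau, F2r and F2rl1, each lower in tRF-Val. Over all genes the groups did not overlap in 22.1% in that direction and in 20.3% in the other. Since the members were chosen with this comparison known, nothing is read from that count. Without NC 3, 3.04% of genes were lower and 2.75% higher at the threshold, and F3 was still the 1 member called; Plau had an adjusted p of 0.0532 and F2rl1 of 0.0932.

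**Figure D3:**
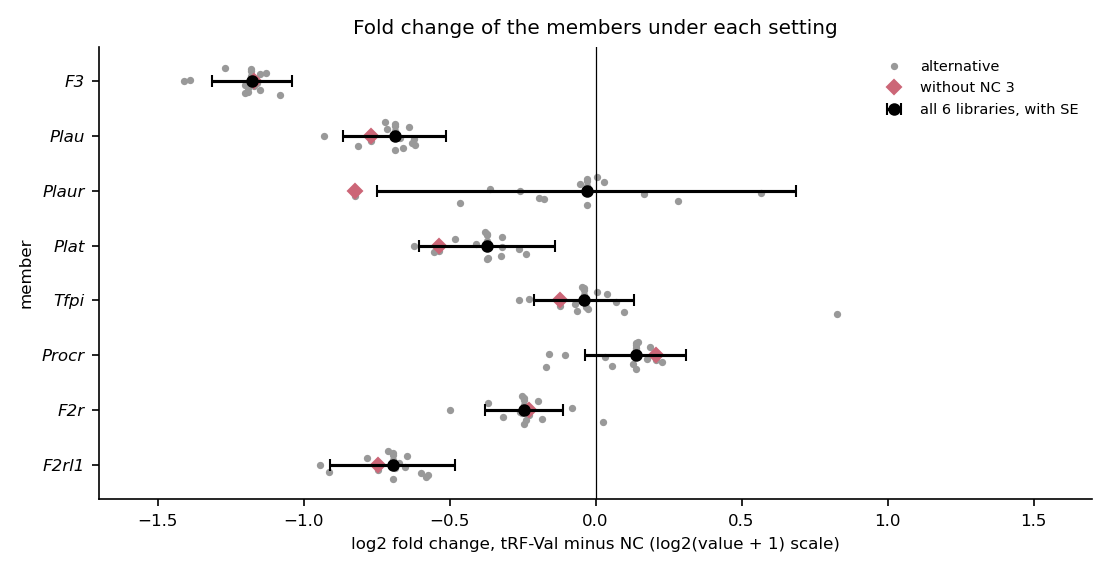
Log2 fold change of each member, tRF-Val less NC, of log2(value + 1) on the horizontal axis, with all 6 libraries (black, with SE), without NC 3 (red diamonds) and under each alternative setting (grey). F3 stays between -1.41 and -1.08, while Plaur lies on both sides of 0, from -0.82 to 0.57.

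StringTie abundances are per transcript length, though the file does not name its scale. On it, F2r had the highest NC mean at 56.1, followed by Plat at 50.4 and F2rl1 at 50.3. Plat and F2rl1 did not differ beyond their spread, while F2r was above F2rl1 in every NC library. Plau at 23.7, Plaur at 18.9, F3 at 17.4 and Procr at 15.8 came next, and Tfpi was lowest at 6.56. Among these the spread of Plaur covered its neighbours, and the F3 mean lay within 1 SD of Procr (2.11) from the Procr mean. In tRF-Val the first places were the same (F2r 47.3, Plat 38.9, F2rl1 31.4), but Procr at 17.5 stood above Plaur and Plau at 14.5 and 14.4. F3 had moved to 7.14, next to Tfpi at 6.30. By level among all genes tested, F3 went from the 64.2 percentile in NC to the 40.2 percentile in tRF-Val, and Plau from 72.6 to 59.5.

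Fold changes over all genes moved with transcript length. In 10 bins of genes by length the median log2 fold change went from 0.61 in the shortest to -0.42 in the longest. F3, with an abundance-weighted length of 1838 bases, lies in the third bin, whose median was 0.25, and Plau in the fourth, with 0.17. Plat and F2rl1 lie in the fifth (0.06) and F2r in the seventh (-0.17). The differences of F3, Plau, Plat and F2rl1 were therefore opposite in sign to the median of genes of like length, and that of F2r was close to it. Plaur (-0.03) and Tfpi (-0.04), near 0, were also opposite in sign to their bin medians of 0.42 and 0.25. With each library's trend with length removed, the fold change of F3 was -1.39 (adjusted p 0.0499 by limma). In that fit Plau was at -0.77 (adjusted p 0.134), F2rl1 at -0.67 (adjusted p 0.173) and F2r at -0.08. With length and GC trends removed F2r was at 0.02.

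The 5 genes whose profile over the 6 libraries lay nearest to that of F3 were Dtx3l, Palld, Gm6685, Setdb2 and Ifi207. The measure was the root mean square difference of log2(value + 1), centred on each gene's mean, which was 0.0596, 0.0813, 0.0909, 0.0978 and 0.103 for these genes against a median of 0.677 over all genes. Dtx3l, a ubiquitin ligase that partners Parp9, was at 35.2, 31.7, 33.3 across NC against 14.1, 14.4, 15.9 across tRF-Val. Palld, the actin-bundling protein palladin, was at 12.1, 11.3, 12.7 across NC against 5.52, 4.36, 5.45 across tRF-Val. Among the members, Plau (0.288) and F2rl1 (0.323) were nearest to F3, at places 428 and 708 of all genes.

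Other genes of the plasminogen system had fold changes of both signs, and none passed in limma's test. Of 22 genes 11 were tested, 6 with positive and 5 with negative fold changes and a median of 0.31. At an unadjusted p under 0.05, 3 were higher and 1 was lower; over all genes tested 12.2% were higher and 15.6% lower at that threshold. S100a10, the partner of annexin A2 in a surface plasminogen receptor, was at 578, 549, 454 across NC against 832, 873, 853 across tRF-Val, without overlap (log2 fold change 0.70, SE 0.149, adjusted p 0.0861 by limma). Without NC 3 it passed, at 0.60 (adjusted p 0.0372), but it was at 0.06 (adjusted p 0.789) with the length trend removed, 0.09 with length and GC trends removed and 0.21 with quantile normalization. Plgrkt, another plasminogen receptor, was at 43.6, 35.1, 28.9 across NC against 50.5, 50.3, 48.55 across tRF-Val. Igf2r, which binds the urokinase receptor and lysosomal enzymes, had a log2 fold change of -0.82 (adjusted p 0.0893 by limma), and Serpinb6a, an intracellular serpin, of 0.55. With the length trend removed these were -0.36 and 0.18, and Plgrkt was at -0.05.

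Of 32 coagulation genes 9 were tested, with a median log2 fold change of 0.09, 6 positive and 3 negative. No member of that list passed in limma's test; at an unadjusted p under 0.05, 1 was higher and 2 were lower, beside 12.2% and 15.6% of all genes. Ano6, a scramblase that exposes phosphatidylserine and so raises tissue factor activity, was at 22.2, 12.75, 18.8 across NC against 5.16, 8.77, 10.5 across tRF-Val. The groups did not overlap (log2 fold change -1.06, SE 0.310, adjusted p 0.111). Vkorc1, which recycles vitamin K for the carboxylation of clotting factors, was at 10.55, 10.63, 10.2 across NC against 13.1, 22.3, 17.8 across tRF-Val. Lman1, which carries factors V and VIII out of the endoplasmic reticulum, had a log2 fold change of -0.39, and Vkorc1l1, a relative of Vkorc1, of 0.35, which was 0.02 without NC 3. With the length trend removed Vkorc1 went from 0.68 to 0.07, and Ano6 from -1.06 to -0.71 (adjusted p 0.306 by limma).

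Of 24 genes of protease-activated receptor signalling 20 were tested, 9 positive and 11 negative, with a median of -0.10. None passed; at an unadjusted p under 0.05, 2 were higher and 4 were lower, which is near the 12.2% and 15.6% of all genes. Usp8, a deubiquitinase of the endosomal sorting of receptors, was at 20.6, 20.0, 31.6 across NC against 13.65, 10.99, 11.3 across tRF-Val (log2 fold change -0.92, adjusted p 0.0899 by limma). Rock2, a kinase activated by RhoA, was at 26.2, 27.0, 57.4 across NC against 17.55, 14.67, 14.45 across tRF-Val (-1.10, adjusted p 0.11 by limma). Without NC 3 both passed, with fold changes of -0.72 (adjusted p 0.0483) and -0.74 (adjusted p 0.0446). Arrb2, an arrestin that couples to these receptors, had a fold change of 0.63 and Prkca, protein kinase C alpha, of -0.73. With length and GC trends removed these were 0.18 and -0.23, and Usp8 and Rock2 were at -0.54 and -0.53.

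Of 16 membrane proteases and partners 7 were tested, 4 positive and 3 negative, with a median of 0.10, and none passed. Spint2, an inhibitor of matriptase and related membrane proteases, was at 189, 176, 74.6 across NC against 281, 310, 325 across tRF-Val, without overlap (log2 fold change 1.17, SE 0.363, adjusted p 0.12 by limma). Without NC 3 the fold change was 0.74 and the adjusted p 0.037. Adam10, a sheddase of many membrane proteins, was at 32.0, 30.4, 35.4 across NC against 28.05, 0.717, 1.52 across tRF-Val. Its fold change of -2.74 (SE 1.03, adjusted p 0.156 by limma) therefore rested on 2 of the tRF-Val libraries. Without tRF-Val 2 it was -1.97 (adjusted p 0.382), and without tRF-Val 3 it was -2.25 (adjusted p 0.368). Since tRF-Val 1 is the library nearest to NC, the fit without it, at -4.01 (adjusted p 0.0176), adds no support. With length and GC trends removed Spint2 was at 0.54. Furin (-0.75) and Prss8 (0.44) had overlapping groups and were at -1.22 and 0.03 without NC 3.

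Of 25 regulators known to act on these genes or their messages 24 were tested, 13 positive and 11 negative, with a median of 0.03, and none passed. At an unadjusted p under 0.05, 1 was higher and 4 were lower, beside 12.2% and 15.6% of all genes. No AP-1 gene passed. Jun was at 21.55, 21.2, 24.5 across NC against 22.1, 20.9, 22.5 across tRF-Val. Jun lies outside the rule for named genes and was chosen after its values were seen. Jund had a log2 fold change of 0.49 (adjusted p 0.121 by limma), which was -0.22 with length and GC trends removed. Nfkb1, which encodes the NF-kappa B precursor p105, was at 21.6, 25.3, 24.3 across NC against 13.5, 6.41, 9.39 across tRF-Val. Its groups did not overlap (log2 fold change -1.25, SE 0.263, adjusted p 0.0861 by limma). Hif1a (-0.77) and Wwtr1 (-0.70), a coactivator of TEAD factors, also had groups that did not overlap. With the length trend removed Hif1a and Wwtr1 were at -0.45 and -0.36, and with length and GC trends removed at -0.24 and -0.22. Of the 24 regulators tested, 5 were lower without overlap and 3, Jund among them, were higher without overlap. Over all genes these shares were 22.1% and 20.3%, so nothing is read from the counts.

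**Figure D4:**
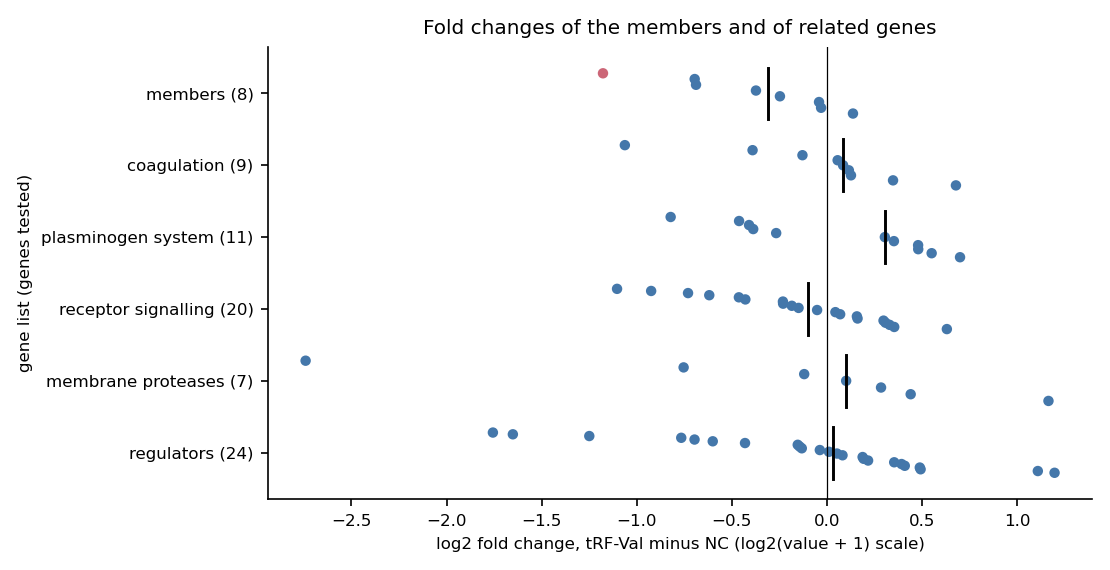
Log2 fold changes, tRF-Val less NC, of log2(value + 1) on the horizontal axis, of the members and of the genes of 5 related lists (rows, with the number tested); each dot is a gene, red where the adjusted p is under 0.05, and the black bar is the median. F3 is the 1 red dot, and the 5 related lists have medians between -0.10 and 0.31.

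Of 17 markers of renal tubular epithelium 9 were listed, among them Pax8, Cdh16, Krt8 and Krt18, with a summed value of 498 to 735 in NC and 840 to 876 in tRF-Val. The brush border genes Lrp2, Cubn and Slc34a1 matched no row. Of 12 endothelial markers 3 were listed, Cdh5, Flt1 and Egfl7, with sums of 8.20 to 15.3 in NC and 9.36 to 13.2 in tRF-Val. Within that sum Cdh5 was at 6.25 to 8.03 in NC and 2.72 to 5.02 in tRF-Val (log2 fold change -0.90, adjusted p 0.101 by limma), and Egfl7 at 0 to 5.54 and 5.18 to 8.95. Pecam1, Kdr, Tek and Vwf matched no row. Of 12 leukocyte markers 5 were listed, with sums of 13.4 to 35.8 and 47.2 to 54.8. Cd14 made up most of the difference, at 5.40 to 20.8 in NC and 31.5 to 37.1 in tRF-Val (log2 fold change 1.30, adjusted p 0.149 by limma); without NC 3 it passed, at 0.74 (adjusted p 0.0419). Ptprc, Adgre1, Csf1r and Itgam matched no row. Of 8 fibroblast markers 2 were listed, with sums of 0.850 to 1.26 and 1.01 to 1.76. Of 5 platelet markers Ppbp, a chemokine, was listed, at 50.2 to 60.4 in NC and 104 to 140 in tRF-Val (adjusted p 0.0568 by limma, and 0.0387 without NC 3). The part of these differences in the values of the members was not tested.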

How the data were processed

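RNA sequencing of BUMPT cells was taken from a table of 6 libraries, grouped by sample title. The deposited values are a signal, scaled by the authors, with 1 abundance per transcript and library. The choice between FPKM and TPM is not given in the sources used here, and depth is unknown. Per the labels' protocols, Trizol extraction preceded a stranded library kit; the same text describes joint tissue, and the cell line named for each sample was followed. HISAT2 2.1.0, StringTie and cutadapt are named in the submitters' processing notes, with the human build GRCh38, while 21603 of 30813 rows carry mouse identifiers. The 9210 human rows were not used. Without versions, 21558 mouse identifiers matched GENCODE M21 (GRCm38) and 45 did not.

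Values of all transcripts of a symbol were added. Genes with a mean of at least 1 were fitted on log2(value + 1) with limma 3.58.1 in R 4.3.3 (trend and robust moderation, no covariate), two-sided, with Benjamini-Hochberg adjustment over 10405 genes and a threshold of 0.05. The smallest exact permutation p for 3 against 3 libraries is 0.1, so none is given. No 2 libraries held identical values. The fit was tested on simulated data.

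Members and lists were chosen with earlier results of these data known. Named genes were all members, genes of each list past the threshold and its 4 with the smallest p, and the 5 nearest to F3. Alternatives covered the pseudocount, the filter, scaling, moderation, a replicate block, length, mitochondrial transcripts, single transcripts and each library left out; the correction for length and GC content (loess, span 0.3) was added after the data were seen. Promoter windows are those of RefSeq on GRCm38.p6. Some genes of the lists are not reported here.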

Additional observations from a re-analysis of the deposited data

How the results depend on the processing

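F3 and Plau, Plat and F2rl1 kept negative fold changes under every alternative run; the call of F3 did not hold in 10 of 17. Its log2 fold change and limma adjusted p were -1.27 and 0.0526 with a pseudocount of 0.1, -1.18 and 0.0504 with a mean of at least 5 as the filter, -1.13 and 0.0535 with median scaling, and -1.08 and 0.0502 for its longer transcript; in the first 3 of these 0 members passed. With 1 library left out F3 ranged from -1.20 to -1.15, and 0 to 1 members passed. Samples with the same replicate number did not deviate together (r of -0.0297, 0.016 and -0.00948 across genes). By that r, no library was closest to the library of the other group with its own number. With the replicate block F3 was at -1.18 with an adjusted p of 0.189 by limma. In that fit 0 genes were higher and 0 lower over all genes (1080 and 1375 at an unadjusted p under 0.05). Over all genes, higher and lower calls numbered 2 and 3 with the pseudocount of 0.1, 1 and 1 with the stricter filter, 15 and 23 with median scaling, 22 and 49 with quantile normalization, 6 and 32 without robust moderation, 23 and 186 after rescaling without mitochondrial transcripts, which shifted the median of all genes to -0.20, and 21 and 35 with length and GC trends removed. With 1 library left out they ranged from 0 to 286 higher and from 3 to 316 lower. Relative to that shift, F3 at -1.41 and Plau at -0.93 were about as low as before.

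Members near 0 changed sign, and none of them passed. Plaur was at 0.0043 with the pseudocount of 0.1 and at 0.028 with median scaling, and ranged from -0.82 to 0.57 with 1 library left out. Tfpi was at 0.0051 with median scaling, 0.040 with quantile normalization, 0.096 with length and GC trends removed and 0.83 for its most abundant transcript, and ranged from -0.12 to 0.0704 with 1 library left out. Procr was at -0.16 with the length trend removed, -0.10 after mitochondrial rescaling and -0.17 with length and GC trends removed; F2r was at 0.024 in the last. Of the other named genes, Plgrkt went to -0.046 with the length trend removed, and Jund to -0.22 and Vkorc1 to -0.0028 with length and GC trends removed. The cause of these changes was not tested. Depth is unknown, so its limits could not be given.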

Other observations

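Some regulators of these genes had widely spread values within a group. Sp1 read 12.2, 12.2, 12.1 across NC against 0.0764, 6.60, 6.26 across tRF-Val. It was lower without overlap (log2 fold change -1.76, SE 0.756, adjusted p 0.192 by limma), and its spread lay in tRF-Val. Tead1 read 2.54, 11.2, 3.39 across NC against 0.0646, 0.261, 3.55 across tRF-Val, which overlapped (-1.65, adjusted p 0.188 by limma). In NC 3, Junb was at 12.6 and Relb at 1.13, against 76.6 to 104 and 8.71 to 14.8 in the other 5 libraries. Both were higher in tRF-Val without overlap, at 1.11 and 1.20 (adjusted p 0.333 and 0.257 by limma). Without NC 3 these fold changes were 0.24 and 0.44 (adjusted p 0.185 and 0.13). These genes were chosen after their values were seen.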
